A study of Mus musculus with 14 samples.

Results

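Loss of Cdk6 was examined in mouse HPC-LSK lines transformed with BCR-ABL p210. HPC-LSK lines are cultured haematopoietic progenitor lines named after the Lin-, Sca-1+, Kit+ fraction of bone marrow, and BCR-ABL p210 is the fusion kinase of chronic myeloid leukaemia. The members were the libraries whose titles give p210 together with a Cdk6 genotype, which were 4 knockout (KO) and 3 wild-type (WT) libraries of 14 in all. The other 7 libraries were untransformed lines, 4 WT and 3 KO, which entered the estimate of the spread and 1 later comparison. All lines were on the C57BL/6N background per the labels. Untransformed cells were grown in 12.5 ng/ml IL-6 and 2% SCF on agarose, and both p210 groups without either cytokine. Per the growth protocol every p210 library therefore shared the oncogene and a medium without cytokines, although SCF also appears in the p210 sample descriptions, unexplained. Apart from Cdk6, no genotype or treatment label differed between KO and WT p210 libraries. Sequencing runs did differ. KO replicates 2 and 4 had 2 runs each, and every other p210 library had 1. The labels do not say which exons of Cdk6 are missing, how p210 was introduced, or whether a transformed line is 1 clone. They also do not say whether replicates were separate derivations. The p-values therefore measure only the spread between libraries, pooled over all 14 unless stated otherwise. That spread may in part be technical. The sample descriptions carry 1 of 2 codes and a letter A or B. The first code is on replicates 1 and 2 of both p210 groups. The second is on WT replicate 3 and on KO replicates 3 and 4. Among p210 libraries the second code with letter B occurs in KO replicate 4 only.

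CDK6 is a kinase that binds D-type cyclins in G1 and phosphorylates the retinoblastoma family, which releases E2F factors that drive genes of DNA synthesis. It is abundant in haematopoietic progenitors, where it also binds chromatin and takes part in transcription apart from the cell cycle. BCR-ABL p210 is constitutively active and feeds the JAK-STAT, MAPK and PI3K pathways, which lets progenitors grow without cytokines. The comparison asked which transcripts differ between transformed progenitors with and without CDK6.

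Total counts of the 7 libraries ranged from 20270348 to 36234562, and 18105 to 20030 genes had at least 1 count. The tissue label was only partly met by its markers. Cd34 was at 368 to 990.3 CPM (edgeR's counts-per-million unit, over the library's TMM-scaled total) and the pan-leukocyte gene Ptprc at 331 to 646 CPM, while Kit was at 14.95 to 59.1, Ly6a, the gene of Sca-1, at 0.553 to 29.1 and Flt3 at 0.193 to 2.45 CPM. Genes of mast cells and basophils were abundant in both genotypes, with Cpa3 at 1385 to 7704 CPM. The T-cell genes Cd3e and Cd8a, the dendritic gene Siglech and the endothelial gene Cdh5 had no count in any of the 7 libraries.

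Cdk6 itself (chromosome 5, 3341485 to 3531008, GRCm38) was checked first. It stood at 576, 606 and 597 CPM in the WT libraries. The KO libraries held 326, 578, 245 and 163 CPM in the order of their numbers. KO replicate 2 thus lay inside the WT range and against its label, and the other KO libraries lay below every WT library. With all libraries the log2 fold change (KO minus WT, as everywhere below) was -0.86 ± 0.31 (SE), which did not pass (adjusted p = 0.147, edgeR's quasi-likelihood test). Without the library labelled KO replicate 2 it was -1.28 (adjusted p = 0.0143), a value that is no independent test, since that library was singled out for its Cdk6 level. On the authors' length-scaled TPM, Cdk6 was at 142 ± 3.84 in WT (SD, n = 3) and 71.0 ± 39.7 in KO (n = 4). The untransformed KO library that carries the same code and letter as KO replicate 2 held 257.5 CPM, next to 271 and 236 CPM in the other untransformed KO libraries. Bcr and Abl1, the mouse genes whose human counterparts form the fusion, overlapped between the genotypes and did not pass (log2 fold change 0.35, adjusted p = 0.238, and 0.17, adjusted p = 0.508).

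Apart from Cdk6, KO replicate 2 lay with the KO group. When it was left out of the fit, 305 genes were called between the remaining KO libraries and WT, and the left-out library could be placed for 304 of them on a scale from the WT mean (0) to the mean of the other KO libraries (1). Its median place was 1.01, and it was nearer to KO in 287 of the 304 genes (94.4%). The same exercise gave 0.711 for KO replicate 1, 0.945 for replicate 3 and 0.818 for replicate 4. Among WT libraries, replicate 1 lay at -0.0747, replicate 2 at 0.382 and replicate 3 at 0.507. WT replicate 3 was nearer to the WT mean in 360 of 731 genes (49.2%). The library with the WT level of Cdk6 thus lay with its labelled group over the genes called without it. Each library was placed over its own set of genes, 304 for KO replicate 2 and 729, 498 and 551 for KO replicates 1, 3 and 4. The medians therefore do not rank the libraries over common genes.

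**Figure D1:**
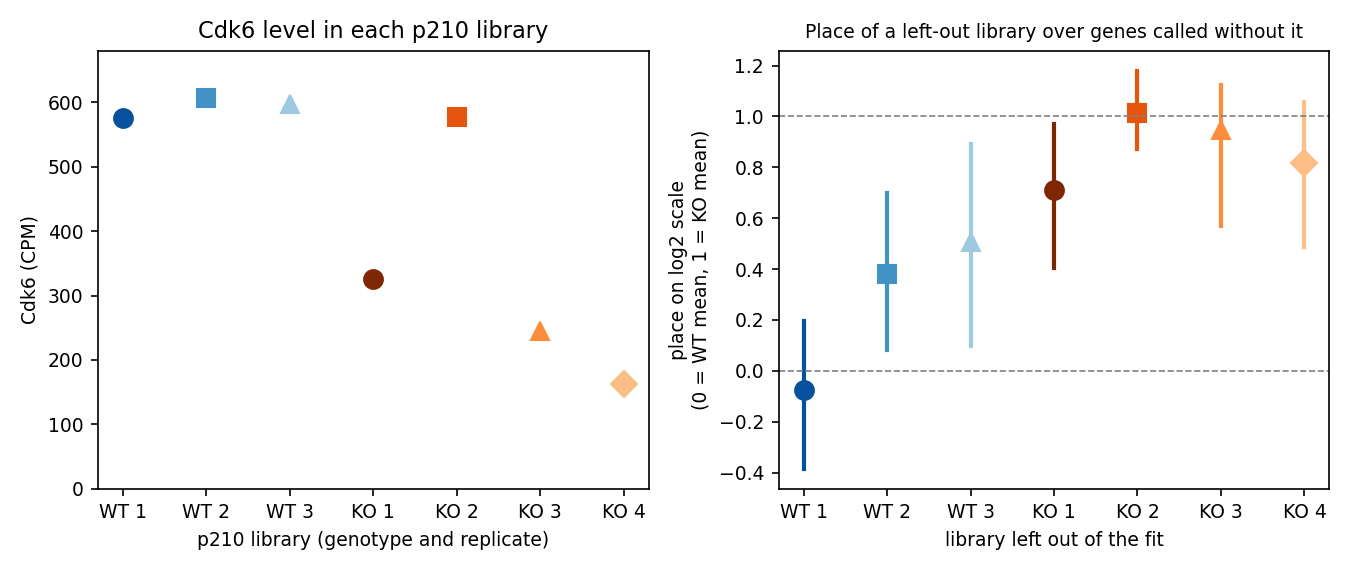
Left, Cdk6 level in CPM in each p210 library; right, median place of each library when left out of the fit, on log2 CPM between the mean of WT (0) and of KO (1), with bars from the lower to the upper quartile of the genes called without it. KO 2 stands at 578 CPM of Cdk6 but at 1.01 on the right, and WT 3 stands at 0.507.

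Genes were named by a fixed rule given with the processing, and further list members were picked after their values were seen. Of 14512 genes tested, 645 (4.44%) passed an adjusted p of 0.05, 517 lower (3.56%) and 128 higher (0.882%) in KO than in WT. Without KO replicate 2 the calls were 305 (2.1%), with 259 lower (1.78%) and 46 higher (0.317%), and 248 of the lower and 44 of the higher ones were also in the larger set. These fits took the spread from all 14 libraries. The untransformed groups varied less than the p210 groups, so the pooled spread may understate that of the p210 libraries. With the 7 p210 libraries alone 5 genes passed (0.0373%), 3 lower (0.0224%) and 2 higher (0.0149%), with 1793 at an unadjusted p under 0.05. Without KO replicate 2 that fit called 1 gene, with 1262 at an unadjusted p under 0.05. The 5 genes were Arhgef5, Cers4 and Lrmda, and Pdzd2 and the predicted gene Gm6969, the latter pair named after their values were seen. The number of calls depended on the test. DESeq2, another count test, called 501 genes lower and 277 higher in the same 7 libraries. The libraries of the genotypes were apart in 1117 lower (7.7%) and 818 higher genes (5.64%), 13.3% together. Within the first code the calls were 453 lower and 202 higher, and within the second, with 1 WT library, 4 lower and 0 higher. The genotypes did not overlap in 460 of the 517 genes called lower and 125 of the 128 called higher. Total count scaling made the calls more one-sided, with 722 lower and 69 higher (91.3% lower against 80.2%), and moved the median of all genes from 0.00 to -0.10.

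The WT p210 libraries varied widely among themselves. Of 10123 genes with a mean of at least 5 CPM in WT, 237 (2.34%) differed by more than 10 times between the highest and the lowest WT library and 574 (5.67%) by more than 4 times. In KO 193 and 454 of 9837 genes did so over 4 libraries, or 140.5 and 343 on average over sets of 3. The biological coefficient of variation, edgeR's estimate of the spread between replicates, was 0.4265 in WT p210, 0.376 in KO p210, 0.3305 in untransformed WT and 0.169 in untransformed KO libraries. Among the 517 genes called lower in KO, WT replicate 1 was the highest WT library in 292, and WT replicates 2 and 3 were the lowest in 228 and 229. WT replicate 3 correlated more closely with KO replicate 1 (Spearman's correlation 0.970 across genes) than with WT replicate 1 (0.959) or 2 (0.961). Without WT replicate 1 the calls were 249 lower and 36 higher.

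Single genes show how wide this was. The milk protein gene Csn2 was at 115 CPM in WT replicate 1 and at 0.0336 and 0.102 in the others, and the homeobox gene Emx2 at 201 CPM in WT replicate 3 and at 0.314 and 0.470 in the others. Gzmb, a cytotoxic granule protease gene, was at 177, 6.69 and 785 CPM in WT and at 102, 2.24, 1.83 and 0.234 in KO. Thy1, a surface marker of T cells and of some progenitors, was at 1633, 713, 473 and 0.273 CPM in KO against 17.4 to 67.6 in WT. None of these 4 passed the test (adjusted p = 0.146, 0.537, 0.262 and 0.132). The extremes did not sit in 1 library: of the 237 genes, WT replicate 1 was highest in 110, replicate 2 in 26 and replicate 3 in 101.

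The genes with the smallest p-values within the 7 libraries are given next. Arhgef5 (chromosome 6, 43265582 to 43289320), an exchange factor that activates small GTPases, was at 17.2, 5.14 and 12.03 CPM in WT and at 0.0523, 0.0386, 0 and 0 CPM in KO. Its WT libraries held 938 counts and its KO libraries 2, a ratio of 606 (95% exact interval 167 to 5010, counting error only). All KO libraries were close to no expression (adjusted p = 0.000226, and 0.0474 within the 7 libraries). Slc43a1, a transporter of large neutral amino acids on chromosome 2, was at 8.57, 7.22 and 2.54 CPM in WT and at 0.314, 0.0772, 0.0873 and 0.117 in KO (-5.44 ± 0.46, adjusted p = 0.000245). The linker histone gene H1fx fell from 15.4, 8.47 and 3.60 CPM to between 0.116 and 0.366 (-5.31 ± 0.54). Every KO library of these 3 genes lay far below the lowest WT library.

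Other genes fell by a smaller factor with tighter groups. Cers4, a ceramide synthase gene, was at 59.2, 49.4 and 60.1 CPM in WT and at 26.2, 27.0, 26.3 and 21.7 in KO (-1.15 ± 0.12, adjusted p = 0.000742). Prdx4, a peroxiredoxin of the endoplasmic reticulum, was at 80.3, 53.4 and 97.5 against 22.3, 17.6, 15.9 and 17.9 CPM (-2.07 ± 0.20). Ulbp1, which encodes a ligand of the NKG2D receptor of natural killer cells, was at 184, 241 and 231 against 118, 99.7, 114 and 99.0 CPM (-1.02 ± 0.12). KO replicate 2, like every KO library, lay below WT in all of them, as the rule for choosing the genes required. The junction adhesion molecule gene F11r (-3.08 ± 0.40) and Sgcb, a sarcoglycan gene (-1.30 ± 0.15), also fell, as did the secreted factor genes Tgfb3 (-6.17 ± 0.70) and Calcb (-4.41 ± 0.60). The adjusted p of the genes in this and the preceding paragraph ranged from 0.000226 to 0.00271 with all libraries and from 0.00133 to 0.0109 without KO replicate 2.

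Fewer genes were higher in KO, and their rises were smaller with a few exceptions. Lrmda (chromosome 14, 22019712 to 23056085), a leucine-rich repeat gene associated with melanocyte differentiation, was at 1.54, 1.34 and 1.93 CPM in WT and at 22.4, 15.1, 15.5 and 15.9 in KO. The log2 fold change was 3.43 ± 0.21 (adjusted p = 7.7e-06, and 0.0133 within the 7 libraries). Rnd1, which encodes an atypical small GTPase, was at 2.04, 1.81 and 2.29 against 5.75, 12.3, 10.4 and 12.6 CPM (2.33 ± 0.33, adjusted p = 0.00323). AA465934 rose by 2.68 ± 0.34. Eif5al3-ps rose by 4.92 ± 0.49, but it is a pseudogene whose reads could come from a near-identical copy. Gm6969, at 0.188 to 0.406 CPM in WT and 13.9 to 21.8 in KO, was the single gene called in the 7 p210 libraries both with and without KO replicate 2 (adjusted p = 0.00675 and 0.0283).

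Several of the other genes that rose were more abundant. Ucp2, an inner mitochondrial membrane carrier, was at 313, 316 and 484 CPM in WT and at 853, 835, 729 and 916 in KO (1.17 ± 0.16, adjusted p = 0.00263). Slc44a2, a choline transporter-like gene, was at 118, 133 and 143 against 234, 288, 239 and 202 CPM (0.87 ± 0.12). Slc25a33, a mitochondrial nucleotide carrier, rose by 0.74 ± 0.10 and Bcat2, the mitochondrial branched-chain aminotransferase, by 0.50 ± 0.09. Myl12a, a myosin regulatory light chain, Tfe3, a transcription factor of lysosomal genes, and Rogdi rose by 0.56, 0.52 and 1.03. Adgre4, an adhesion receptor of myeloid cells, was at 12.5, 12.7 and 7.82 CPM in WT and 49.0, 45.7, 21.0 and 41.0 in KO (1.83 ± 0.29). Gsta3, a glutathione transferase gene, was at 0.202 to 0.863 against 1.70 to 11.2 CPM and lost its call in 15 of 23 alternatives.

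**Figure D2:**
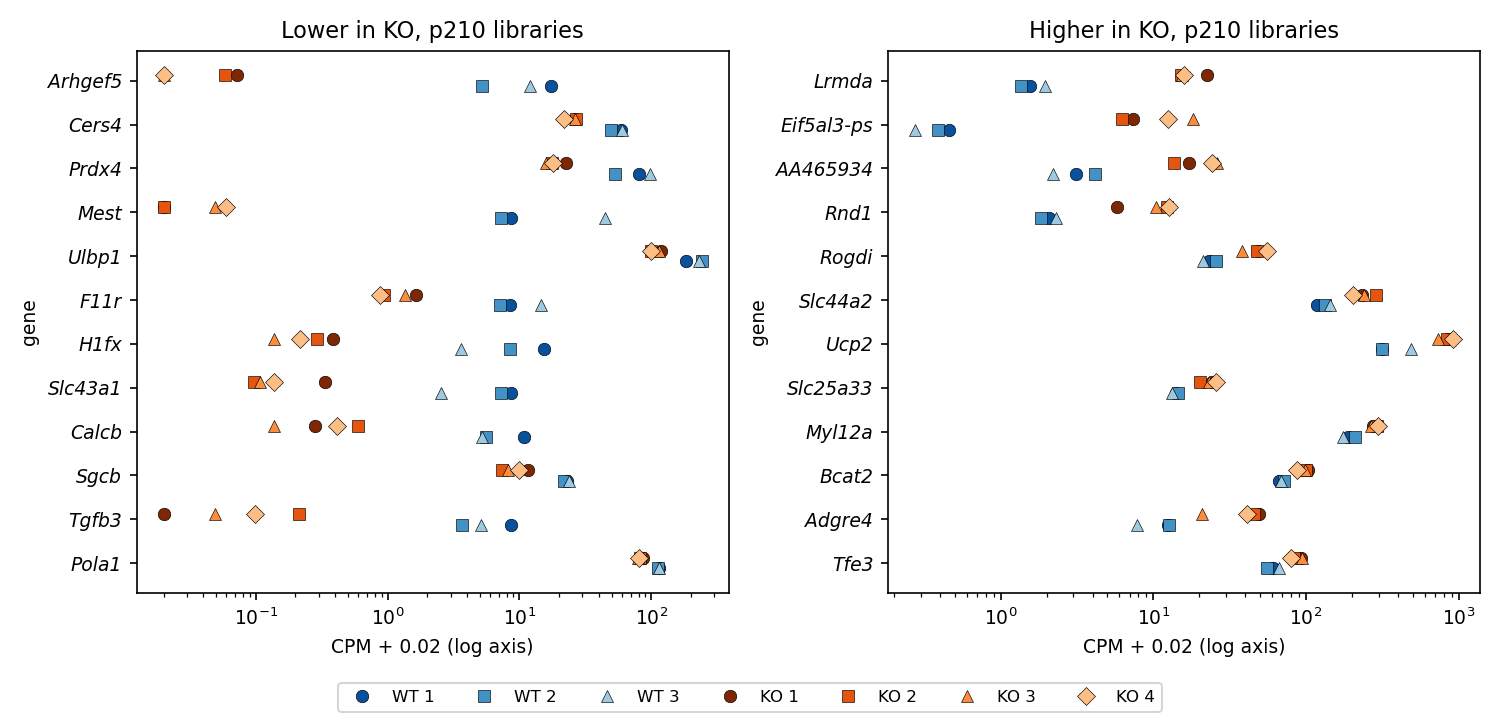
CPM plus 0.02 on a log axis in each p210 library for the 12 genes lower (left) and 12 genes higher in KO (right) with the smallest p within the 7 libraries; blue marks are WT and brown to orange marks KO libraries. WT and KO marks, KO 2 (orange square) included, do not overlap in any row, as the rule for choosing the genes required.

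Genes downstream of the kinase's own G1 pathway were examined next. Of 28 tested G1 regulators, 2 fell and none rose (7.14% lower against 3.56% of all genes), and both were also called without KO replicate 2. Cdkn2c, which encodes the CDK4 and CDK6 inhibitor p18, was at 14.8, 13.04 and 10.8 CPM in WT and at 3.55, 4.17, 5.15 and 6.94 in KO (-1.38 ± 0.21, adjusted p = 0.0051). Rbl1, the pocket protein p107, was at 121, 126 and 111 against 91.6, 89.9, 95.9 and 82.8 CPM (-0.41 ± 0.07, adjusted p = 0.00816). Groups did not overlap in either gene. Cdkn1c, the inhibitor p57, was at 0.282, 0.638 and 0.406 CPM in WT and 1.88, 3.44, 8.56 and 6.28 in KO, but did not pass (3.50 ± 0.99, adjusted p = 0.0709).

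Of 40 genes of DNA replication and nucleotide supply, 12 fell (30% against 3.56% of all genes) and none rose, with a median log2 fold change of -0.27 beside 0.00 over all genes. Lig1, the ligase that joins Okazaki fragments, was at 134, 115 and 104 CPM in WT and at 77.9, 71.8, 69.1 and 78.3 in KO (-0.67 ± 0.09, adjusted p = 0.00323). Pola1 (chromosome X, 93304767 to 93632155), the catalytic subunit of the polymerase that starts each strand, was at 114, 112 and 115 against 86.5, 81.5, 79.4 and 80.3 CPM (-0.47 ± 0.09, adjusted p = 0.014). Rfc3, a clamp loader subunit (-0.46 ± 0.09), fell as well. These 3 were among the 4 members called without KO replicate 2. The 8 members that lost their call without it were the helicase subunits Mcm2, Mcm3 and Mcm4, the primase genes Prim1 and Prim2, Pole, Tk1 and Clspn, with log2 fold changes between -0.51 and -0.28 and adjusted p from 0.0174 to 0.0479, rising to between 0.053 and 0.122 without KO replicate 2. In 17 of the 40 genes every KO library lay below every WT library (7.7% of all genes did). The changes were small, and no member passed within the 7 libraries, where 20 had an unadjusted p under 0.05.

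Promoters of Pola1, Rbl1 and Rfc3 are shown because these genes fell in both fits and have a single listed start. Each window is the 250 bases before the RefSeq start (GRCm38.p6), read 5′ to 3′ on the gene's strand. Capitals mark a match to the E2F motif searched, TTTCCCGC or TTTGGCGC on either strand.
Pola1 (chrX:93632156-93632405, minus strand): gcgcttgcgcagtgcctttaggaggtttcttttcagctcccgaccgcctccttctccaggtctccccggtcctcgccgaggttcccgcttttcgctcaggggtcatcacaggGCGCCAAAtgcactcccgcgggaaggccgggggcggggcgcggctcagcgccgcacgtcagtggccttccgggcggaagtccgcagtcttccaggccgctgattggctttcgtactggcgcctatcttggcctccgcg
Rbl1 (chr2:157204535-157204784, minus strand): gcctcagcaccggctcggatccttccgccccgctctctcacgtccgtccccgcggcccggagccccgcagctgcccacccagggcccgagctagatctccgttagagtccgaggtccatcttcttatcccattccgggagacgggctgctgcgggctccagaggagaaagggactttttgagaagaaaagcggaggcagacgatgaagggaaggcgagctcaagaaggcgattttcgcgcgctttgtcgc
Rfc3 (chr5:151651209-151651458, minus strand): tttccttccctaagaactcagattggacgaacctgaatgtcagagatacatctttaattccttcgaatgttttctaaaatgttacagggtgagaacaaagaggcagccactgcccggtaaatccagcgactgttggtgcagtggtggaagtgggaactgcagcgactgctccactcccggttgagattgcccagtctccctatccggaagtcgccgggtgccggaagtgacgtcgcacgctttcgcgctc
Pola1 has 1 match, 138 bases before its start, and Rbl1 and Rfc3 have neither searched string in these windows. Other forms of the motif were not searched, such as the TTTCGCGC near the end of the Rbl1 and Rfc3 windows. The shares below therefore cover the searched strings only. In windows of 300 bases that also take the first 50 after the start, 18 of 396 genes called lower with a listed promoter held a match (4.55%), 1 of 99 called higher (1.01%) and 359 of 10460 tested (3.43%). In the windows of 250 bases the share was 2.78% of genes called lower, just under the 2.89% of those tested. Among DNA replication genes the shares in windows of 300 bases were 3 of 8 called lower and 11 of 32 tested (34.4%). In windows of 250 bases they were 1 of 8 and 6 of 32 (18.8%). The AP-1 and STAT motifs were counted in windows of 300 bases. AP-1, TGANTCA, was in 6.31% of promoters of genes called lower, 10.1% of those called higher and 6.58% of those tested. STAT, TTCNNNGAA, was in 7.83%, 5.05% and 8.42%. A match is a string of letters and was not taken as a binding site.

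Mitosis genes did not follow. None of 32 passed in either direction, with a median log2 fold change of 0.00. Top2a, the topoisomerase that untangles sister chromatids, was at 664, 724 and 679 CPM in WT and at 659, 708, 698 and 629 in KO (-0.03 ± 0.07, adjusted p = 0.853). Mki67, the antigen of cycling cells, was at 455 to 488 against 359 to 563 CPM (-0.05 ± 0.15, adjusted p = 0.893). Of 20 p53 targets 1 passed, as lower (5% against 3.56% of all genes). It was Eda2r, a death receptor gene (-2.48 ± 0.57, adjusted p = 0.0315, and 0.0901 without KO replicate 2). No member of 12 BCL2 family genes passed, and the survival gene Mcl1 was at 278 to 330 CPM in WT and 302 to 399 in KO.

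Pathways that BCR-ABL feeds showed few differences between the genotypes. None of 25 JAK-STAT genes and their feedback inhibitors passed. Jak1 was at 466 to 608 CPM in WT and 448 to 532 in KO, and Pim1, a kinase gene induced by STAT5, at 392, 443 and 273 against 436, 541, 408 and 480 CPM (0.34 ± 0.17, adjusted p = 0.309). Of 28 MAPK feedback genes Spry1 passed, at 24.1, 14.8 and 2.89 CPM in WT and 2.10 to 4.75 in KO, which overlapped (-2.22 ± 0.52, adjusted p = 0.0339). It was the single call of the list (3.57% lower against 3.56% of all genes). Its relatives Spry2 and Spry4 lay lower in every KO than in every WT library and did not pass (adjusted p = 0.0741 and 0.0738). Of the 28 genes, 3 lay lower and 2 higher in every KO than in every WT library. Of all genes 7.7% and 5.64% did.

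Of 17 NF-kB genes, 2 inhibitors that the pathway itself induces rose and none fell (11.8% higher against 0.882% of all genes), with a list median of 0.65. Nfkbia, the inhibitor IkB-alpha, was at 45.7, 43.2 and 39.5 CPM in WT and at 211, 199, 69.8 and 68.0 in KO (1.68 ± 0.37, adjusted p = 0.0261, and 0.0676 without KO replicate 2). The KO libraries formed a higher pair, replicates 1 and 2 with the first code, and a lower pair, replicates 3 and 4 with the second code. Nfkbid, a nuclear IkB protein, was at 23.8, 23.6 and 20.4 against 48.0, 40.5, 31.8 and 36.5 CPM (0.80 ± 0.16, adjusted p = 0.0153) and kept its call without KO replicate 2 (adjusted p = 0.0452). Tnf, a cytokine that the pathway induces, was at 13.3 to 15.6 CPM in WT and 16.4 to 77.1 in KO (adjusted p = 0.164, not called).

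A few interferon response genes fell in p210 cells. Of 37 tested, 5 fell (13.5% against 3.56% of all genes) and none rose, and 5 were called lower without KO replicate 2 (background 1.78%), 4 of them the same genes. The summed level of the list overlapped, at 2958 to 3627 CPM in WT and 3032 to 3782 in KO. Usp18, which restrains interferon receptor signalling, was at 15.98, 17.1 and 25.5 CPM in WT and 5.54, 5.87, 4.45 and 2.96 in KO (-2.05 ± 0.36, adjusted p = 0.00887). Ifit2 was at 12.2, 8.50 and 1.78 against 0.349 to 1.48 CPM, and Oasl2 and Rtp4 went from between 0.538 and 2.54 CPM to at most 0.116. Ifitm2, an interferon-induced membrane protein gene, was at 295 to 310 CPM in WT and 221 to 261 in KO (-0.36 ± 0.07, adjusted p = 0.0198, and 0.0619 without KO replicate 2). In untransformed lines 9 of the 37 were called higher in KO (8.73% of all genes were) and none lower. Of 29 cytokine and chemokine ligand genes, 2 fell (6.9% against 3.56% of all genes), the death ligand gene Tnfsf10 (-2.90 ± 0.53) and the chemokine gene Ccl8. Ccl8 was at 8.70, 0.168 and 25.4 CPM in WT and had 1 count in all KO libraries together.

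Stem and progenitor genes held some of the largest falls. Of 46 tested, 11 fell and none rose (23.9% against 3.56% of all genes), 7 without KO replicate 2, with a median log2 fold change of -0.70. Hlf, a transcription factor of stem cells, was at 12.8, 3.09 and 50.5 CPM in WT and at 0.157, 0.116, 0.175 and 0.312 in KO (-6.82 ± 0.95, adjusted p = 0.00323). Mecom, which encodes the stem cell factor EVI1, was at 93.5, 31.1 and 0.558 against 0.523, 0.116, 0.0582 and 0.195 CPM (-7.67 ± 1.30, adjusted p = 0.008). Here WT replicate 3 lay just above the KO libraries. Slamf1, the surface marker CD150, was at 4.93, 3.70 and 1.22 against at most 0.314 CPM (-5.15 ± 0.83). Zfp521, a zinc finger gene of immature progenitors, fell from 8.70, 9.64 and 17.1 to between 0.618 and 4.02 CPM. The stem cell factor genes Gata2, Tal1 and Msi2 lay lower in every KO than in every WT library without passing (adjusted p = 0.0653, 0.0963 and 0.0653). In the list 9 of 46 genes lay lower in this way (7.7% of all genes did) and 1 higher (5.64%). In bulk RNA, fewer cells of a type and less RNA per cell cannot be told apart.

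Erythroid and megakaryocyte genes fell in part, from low levels. Of 14 tested erythroid genes 6 fell (42.9%), 3 of them without KO replicate 2. Gata1, the master factor of both lineages, was at 6.78, 4.54 and 0.457 CPM in WT and at 0.470, 0.116, 0.0873 and 0.117 in KO (-4.41 ± 0.82, adjusted p = 0.0125), so WT replicate 3 was at the level of KO replicate 1. Bcl11a, a repressor of fetal globin genes, was at 11.5, 8.27 and 2.49 against at most 1.04 CPM, and Car2, a carbonic anhydrase gene, at 86.7, 23.3 and 7.67 against 0.204 to 4.08 CPM. The globin gene Hbb-bs was at or near 0 in all libraries, and the summed level of the erythroid list overlapped, at 741 to 1041 CPM in WT and 839 to 1080.4 in KO. The part of cell composition in these falls was not tested. Of 28 megakaryocyte genes 6 fell (21.4% against 3.56%), 2 of them without KO replicate 2 (background 1.78%). Gp1ba, a platelet adhesion receptor subunit, was at 20.8, 13.4 and 5.33 CPM in WT and 0.811 to 1.41 in KO (-3.63 ± 0.69, adjusted p = 0.0135). It just lost its call without KO replicate 2 (adjusted p = 0.05005). The channel gene Trpc6 was at 17.8, 6.18 and 0.558 against at most 0.0873 CPM (-7.33 ± 1.24) and kept its call there (adjusted p = 0.0333). Mmrn1, a platelet granule protein gene, was at 16.9 and 16.4 CPM in WT replicates 1 and 2 and at 0.203 in replicate 3, inside the KO range of 0 to 0.429. Of the abundant members, Pf4, a platelet chemokine gene, was at 936, 1148 and 789 CPM in WT and lower in every KO library, at 305 to 735, without passing (adjusted p = 0.329), and the integrin gene Itga2b overlapped between the genotypes.

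**Figure D3:**
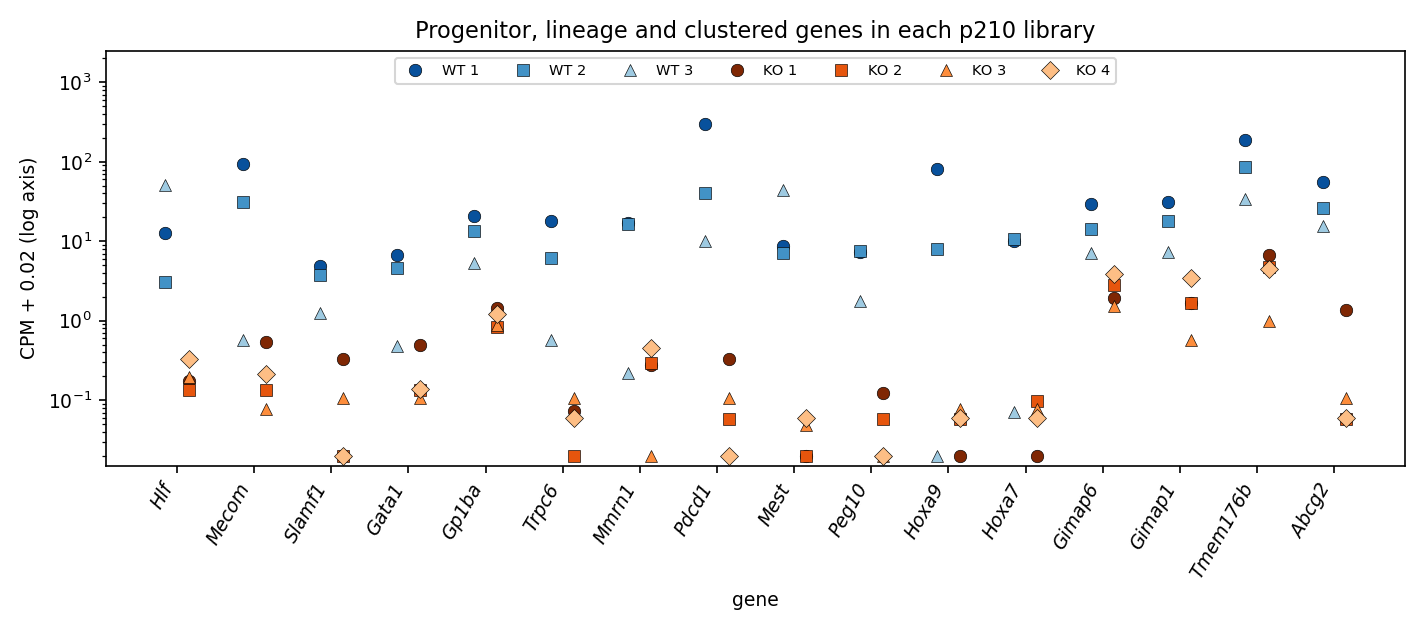
CPM plus 0.02 on a log axis for stem, lineage, imprinted and clustered genes in each p210 library; blue marks are WT and brown to orange marks KO. WT replicate 3 (triangle) is near the KO libraries for Mecom, Gata1, Mmrn1, Hoxa9 and Hoxa7 and above them for Hlf and Mest.

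Receptor and endothelial genes overlapped with these programmes. Of 34 cytokine and growth factor receptor genes 4 fell (11.8% against 3.56%) and none rose, and none passed without KO replicate 2. Eng, a TGF-beta co-receptor of stem and endothelial cells, was at 80.1, 86.9 and 58.4 CPM in WT and 41.1, 21.5, 23.4 and 43.2 in KO (-1.22 ± 0.27, adjusted p = 0.0269). Il6st, the signalling chain of the IL-6 receptor, was at 28.5, 3.70 and 23.5 against 2.51, 0.502, 0.262 and 4.06 CPM, which overlapped (-3.37 ± 0.80, adjusted p = 0.0359). Epor, the erythropoietin receptor, was at most 1.88 CPM in WT and 0.273 in KO (adjusted p = 0.0405). Il6ra, Ifngr1, Tnfrsf1a and Tnfrsf1b were each higher in every KO than in every WT library without passing (adjusted p from 0.0695 to 0.206). In the list 5 of 34 genes were higher in this way (5.64% of all genes were) and 3 lower (7.7%). Of 14 stromal and endothelial genes 4 fell (28.6% against 3.56%), 1 of them without KO replicate 2. Tie1, an endothelial receptor kinase gene, was at 74.4, 23.7 and 61.7 CPM in WT and at 5.23, 6.45, 0.204 and 8.38 in KO (-3.41 ± 0.72). Cdh5 had no count in any p210 library, and the list's summed level was 1896 to 2548 CPM in WT and 1951 to 4341 in KO. Its part in the result was not tested.

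No neutrophil or monocyte gene passed the test. The summed level of the list was 7248, 12594 and 6117 CPM in WT and 12711, 18752, 14442 and 30701 in KO, so the sums did not overlap. Without Lyz2 they did, at 5028 to 8910 in WT and 7274 to 22192 CPM in KO. Of the 44 tested genes the median log2 fold change was 0.84, and 7 genes were higher in every KO than in every WT library (5.64% of all genes were). Lyz2, lysozyme, was at 2220, 3684 and 845 CPM in WT and 5437, 6640, 3767 and 8509 in KO (1.44 ± 0.68, adjusted p = 0.271). Spi1, which encodes the myeloid factor PU.1, was at 134, 168 and 142 against 200, 232, 206 and 252 CPM (0.59, adjusted p = 0.142), and the NADPH oxidase subunit gene Ncf1 at 140, 274 and 188 against 548, 534, 367 and 558 CPM (1.32, adjusted p = 0.221). Mpo, myeloperoxidase, did not part the genotypes, at 32.1, 409 and 51.5 CPM in WT and at 84.0, 749, 1655 and 1413 in KO. The part of these genes in the falls described above was not tested.

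None of 30 mast cell, basophil and eosinophil genes passed, and Cpa3 overlapped (0.55 ± 0.46, adjusted p = 0.558). In the list 3 genes were lower and 1 higher in every KO than in every WT library (7.7% and 5.64% of all genes were). Fcer1a, an IgE receptor gene, was at 960, 781 and 752 CPM in WT and at 286, 129, 478 and 367 in KO. Among 18 tested lymphoid genes 1 rose (5.56% against 0.882% of all genes) and 1 fell (5.56% against 3.56%). Pdcd1, the checkpoint receptor PD-1, was at 295, 40.7 and 10.2 CPM in WT and at 0.314, 0.0386, 0.0873 and 0 in KO (-10.16 ± 1.21, adjusted p = 0.00155). Its WT libraries spanned a wide range and all KO libraries lay at or near 0. Ubash3a, a phosphatase-like regulator of receptor signalling in T cells, was at 0.314, 3.16 and 0.711 against 11.4, 21.8, 14.3 and 8.85 CPM (3.33 ± 0.77, adjusted p = 0.0334, and 0.0785 without KO replicate 2). The T-cell markers Cd3e and Cd8a had no count in any of these libraries. Of 16 dendritic cell genes 1 fell (6.25% against 3.56% of all genes). It was Tcf4, a basic helix-loop-helix factor gene (-1.49 ± 0.24), from 109, 53.4 and 45.4 CPM to between 21.7 and 28.3.

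Of 45 adhesion and homing genes 2 rose (4.44% against 0.882% of all genes) and 1, Arhgef5, fell (2.22% against 3.56%). Selplg, the selectin ligand PSGL-1, was at 199, 310 and 260 CPM in WT and 551, 477, 510 and 495 in KO (0.99 ± 0.25, adjusted p = 0.043, and 0.0831 without KO replicate 2). Rassf5, an effector of integrin activation, was at 96.0, 110 and 105 against 131, 133, 113 and 143 CPM (0.33 ± 0.08, adjusted p = 0.0479). It lost its call in 19 of 23 alternatives. The integrin chain gene Itgb2, the GTPase genes Rac2 and Cdc42 and the chemokine receptor gene Cxcr2 were higher in every KO than in every WT library and did not pass (adjusted p from 0.0960 to 0.191). In the list 6 of 45 genes were higher in this way (5.64% of all genes were) and 1 lower (7.7%).

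Few genes of the metabolic and stress lists passed. None of 32 cholesterol and fatty acid genes passed, and their median log2 fold change was -0.14. Of 39 glycolysis, pentose phosphate and hypoxia genes 1 rose (2.56% against 0.882% of all genes). Pgd, phosphogluconate dehydrogenase, went from 359, 377 and 516 to 643, 570, 671 and 748 CPM (0.66 ± 0.16, adjusted p = 0.0416, and 0.057 without KO replicate 2). Of 28 stress and amino acid genes 2 rose (7.14% against 0.882% of all genes), both for enzymes of the serine and folate routes, and 1 fell (3.57% against 3.56%). Mthfd2 was at 46.9 to 55.6 CPM in WT and 68.4 to 121 in KO (0.78 ± 0.18, adjusted p = 0.0304, and 0.0422 without KO replicate 2), and Phgdh at 32.3 to 39.9 against 41.5 to 60.05 CPM (0.53 ± 0.13, adjusted p = 0.0358, and 0.0925 without KO replicate 2). Vldlr, a lipoprotein receptor gene, fell with overlap between the groups (adjusted p = 0.0408).

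Imprinted genes, which are expressed from 1 parental copy, were mostly low or absent in both genotypes, and a few fell. Of 21 tested 4 fell (19% against 3.56%) and none rose, 3 of them without KO replicate 2 (background 1.78%). Mest was at 8.60, 7.19 and 44.2 CPM in WT and had 2 counts in the KO libraries together against 1359 in WT, a ratio of 878 (95% exact interval 243 to 7255). Peg10 was at 7.28, 7.46 and 1.78 against at most 0.104 CPM, a ratio of 211 (interval 71.6 to 1025). Peg12 was at 4.11, 3.33 and 1.98 against at most 0.234 CPM (-4.50 ± 0.53, adjusted p = 0.00143). Sgce, which neighbours Peg10 on chromosome 6, was at 3.48, 0.638 and 0.457 against at most 0.104 CPM (adjusted p = 0.014). In untransformed lines Mest averaged 0.376 CPM in the WT and 0.0131 in the KO group, which was not called (adjusted p = 0.0855). The median of the list was 0.00, and -0.37 when the 9 members with 3 or fewer counts in a group stood at their bounds.

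**Figure D4:**
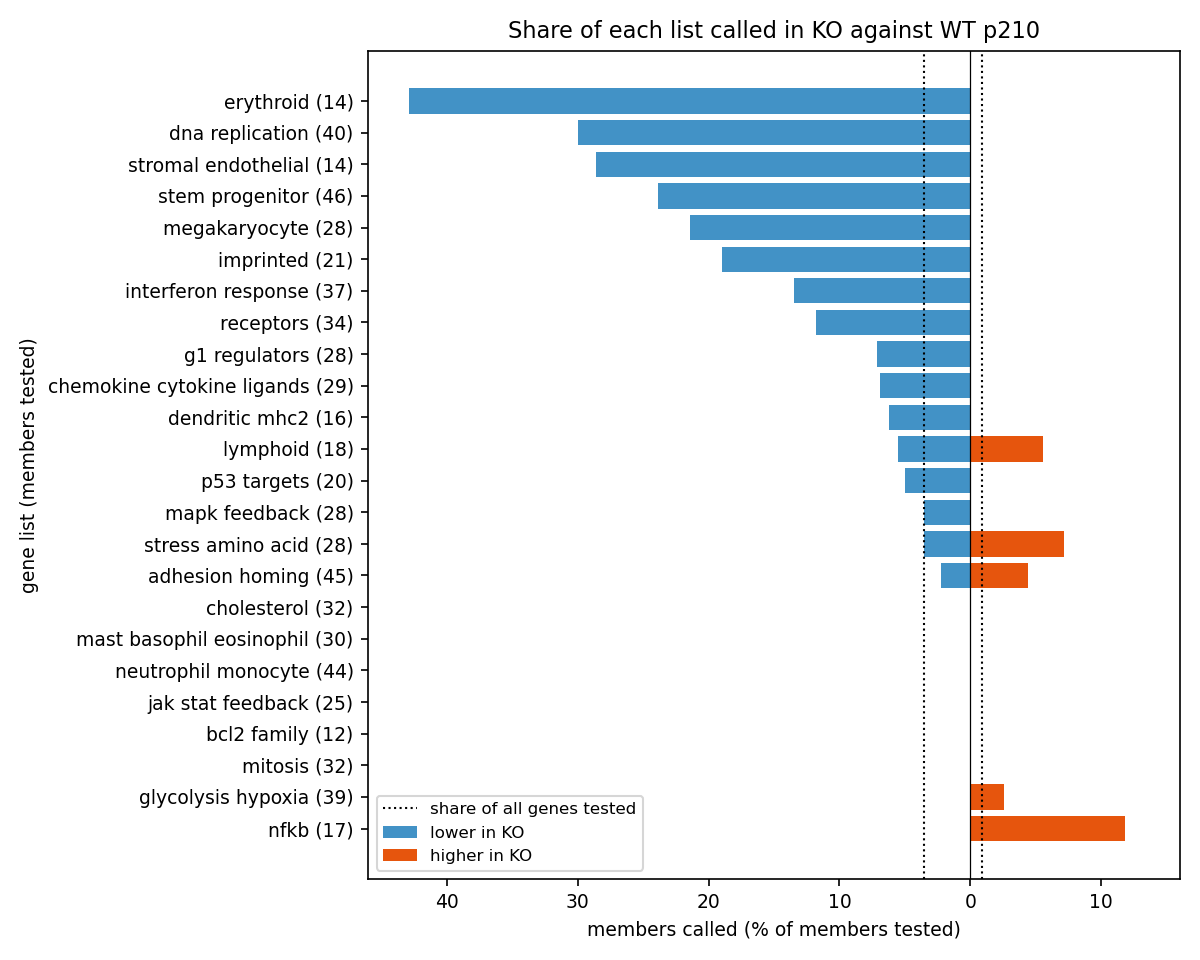
Share of each gene list called lower (blue, to the left) or higher (orange, to the right) in KO p210, as a percent of the members tested (in brackets); dotted lines mark the share of all genes tested, 3.56% lower and 0.882% higher. Erythroid, DNA replication, stromal, stem and megakaryocyte genes have the largest lower shares, and 8 lists have no lower call.

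The untransformed lines gave a second measurement of the genotype in other libraries, though the codes and letters let the same lines appear in both states. There 944 genes were lower (6.5%) and 1267 higher (8.73%) in KO. Of the 517 genes called lower in p210 cells, 147 were also called lower in untransformed cells, which is 28.4% of the first list and 15.6% of the second. Of the 128 called higher 70 were shared, 54.7% and 5.53% of the lists. The fold change had the same sign in both states for 465 of the 517 (89.9%) and 116 of the 128 (90.6%). The share over all tested genes was not computed, so these shares are not read as a trait of the called genes. For the lower genes the median log2 fold change was -2.94 in p210 and -0.87 in untransformed cells, and for the higher genes 0.52 and 0.43. These genes were chosen by their p210 test, which favours larger values there. Over the 944 and 1267 genes chosen by the untransformed test, the order was the opposite, with medians of -0.20 in p210 and -0.56 in untransformed cells for the lower and 0.26 and 0.75 for the higher genes.

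Lrmda had the same pattern in both states, at 1.30 ± 0.21 CPM in untransformed WT (SD, n = 4) and 24.0 ± 1.47 in untransformed KO (n = 3). Cdkn2c, Rbl1, Lig1 and Pola1 also passed as lower in untransformed KO lines, with log2 fold changes of -1.46, -0.48, -0.77 and -0.66. There 27 of the 40 DNA replication genes and 14 of the 32 mitosis genes passed as lower, against 12 and none in p210 cells. The interaction of genotype and state was called for 5 genes (0.0345%), among them none of the DNA replication or mitosis genes, so the lists are not shown to differ between the states. The 5 genes were Arhgef5 and Slc43a1, and Tceal8, Ifitm2 and Nxpe5, the latter 3 named after their values were seen. Slc43a1 was at 38.5 ± 2.08 CPM in untransformed WT and 18.8 ± 2.83 in untransformed KO (-1.03), and the difference between the states was -4.41 on the log2 scale (interaction adjusted p = 0.0306). Ifitm2 was called in opposite directions, 0.39 ± 0.07 in untransformed and -0.36 ± 0.07 in p210 cells (interaction adjusted p = 0.0409).

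**Figure D5:**
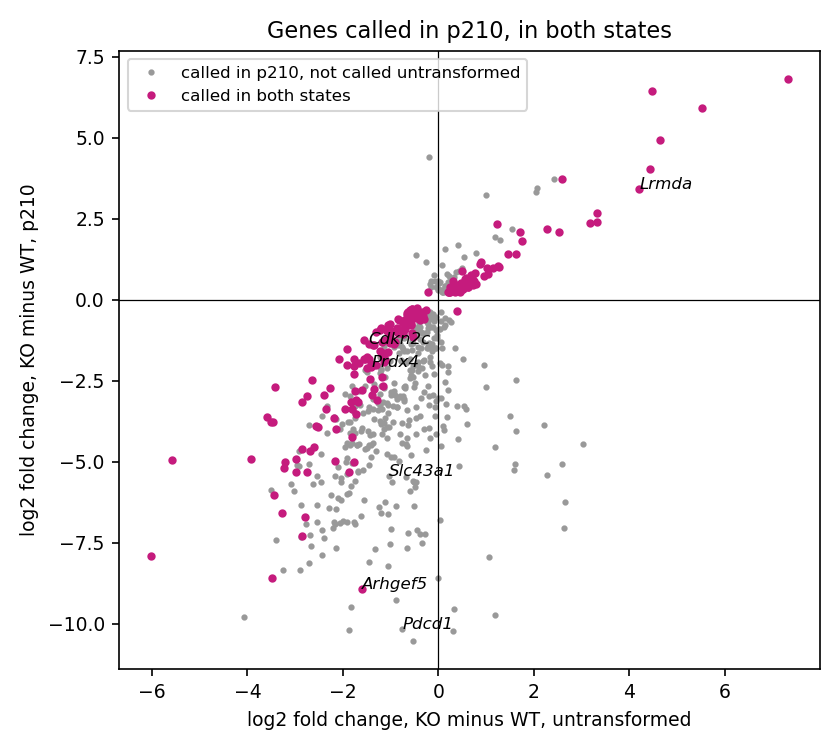
Log2 fold change KO minus WT of each gene called in p210 cells, in untransformed cells (horizontal) and in p210 cells (vertical); pink points were called in both states and grey points in p210 cells but not in untransformed cells. Most points lie in the lower left and upper right. Only genes called in p210 cells are drawn, which favours larger changes there, with Arhgef5, Slc43a1 and Pdcd1 near the lower middle.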

How the data were processed

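RNA of 14 cultures was sequenced as 50 bp single-end reads with a SENSE mRNA-Seq kit, per the labels' protocols. STAR, Trimmomatic and featureCounts with GRCm38 are named in the submitters' processing notes. The authors deposited raw counts per gene from featureCounts 1.5.1 with strand setting 2 and GENCODE M13, per the file headers. TPM values deposited beside the counts were used for Cdk6 alone. Symbols came from a GENCODE M21 table (50376 of 50686 genes).

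Groups were taken from the titles. Genes passed edgeR's filter (minimum count 10, total 15). The test was edgeR's quasi-likelihood test (edgeR 4.0.16, R 4.3.3) with TMM scaling, 1 fit of all 14 libraries in 4 groups, with p-values adjusted by Benjamini-Hochberg across every tested gene and a threshold of 0.05. CPM values are counts over TMM-scaled library totals, and 3 counts correspond to 0.0828 to 0.148 CPM of the unscaled total of a p210 library. Exact intervals cover counting error only. Fits of the 7 p210 libraries alone and without KO replicate 2 stand beside it, and 23 alternatives included DESeq2 1.42.0 and limma-voom (limma 3.58.1). Scripts were tested on simulated data. Replicates 1, 2 and 3 carry the same code and letter in both p210 groups, though the labels state no pairing. Deviations from the group means were close to uncorrelated between equal numbers (-0.0887, 0.0401 and -0.0422). Whether equal numbers share a derivation was not tested.

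The members and the 24 lists were chosen with earlier results of these data known. The naming rule took, among genes called with and without KO replicate 2, without overlap, at 5 CPM or more in the higher group and without a predicted-gene name, the 12 per direction with the smallest p in the 7 libraries and the 5 with the largest fold change. It added up to 4 called members per list, the 2 most abundant of a list without calls, and the 10 most variable genes per group at a mean of 20 CPM or more. Other genes were named after their values were seen. Some genes that the rule selects are not reported here.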

Additional observations from a re-analysis of the deposited data

Results flagged for a closer look

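In 12 of the genes named here 1 KO p210 library stood apart from the other 3, by the gap to its nearest neighbour as a share of the group's range in log2 CPM, which exceeds Dixon's limit in about 1 in 20 groups by chance. The share was 0.876 for Cers4, 0.862 for Lrmda, 0.889 for Gata1, 0.845 for Tie1, 0.939 for Dkk3, 0.830 for Vill, 0.879 for Cald1 and 0.846 for Thy1. It was 1.0 for Ccl8, Aqp1, Col4a1 and Sgce, whose KO libraries held 1 or 2 counts in all. Among the abundant genes Thy1 was at 0.273 CPM in KO replicate 4 against 473 to 1633 in the others, and Vill at 86.9 CPM in KO replicate 4 against at most 0.425.

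The effect of the genotype differed between p210 and untransformed cells for Arhgef5 (interaction adjusted p = 0.03056, edgeR's quasi-likelihood test), at 15.6 CPM in untransformed WT and 5.11 in untransformed KO on average. For Slc43a1 the interaction adjusted p was also 0.03056.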

How the results depend on the processing

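The number of calls depended on how the spread was estimated. Genes lower in KO numbered 1006 with DESeq2, 290 with limma-voom, 235 with quality weights, 3 within the 7 p210 libraries, 0 there without KO replicate 2, 4 in the second code and 162 in p210 libraries of 1 run. Leaving out 1 library gave 249 (without WT replicate 1) to 576. Genes higher in KO numbered 448 with DESeq2, 277 with DESeq2 on the 7 libraries, 80 with quality weights, 69 with total count scaling, 67 without a filter, 2 within the 7 libraries, 1 there without KO replicate 2, 202 in the first code, 0 in the second and 28 in libraries of 1 run, and 36 to 178 with 1 library left out. Of list members, 63 called, 121 were called with DESeq2, 24 with limma-voom, 20 with quality weights, 1 and 0 within the 7 libraries with and without KO replicate 2, 3 in the second code, 12 in libraries of 1 run and 30 to 79 with 1 library left out. Of 71 named genes called, 40 were called with limma-voom, 36 with quality weights, 3 and 0 within the 7 libraries, 2 in the second code, 28 in libraries of 1 run and 47 to 64 with 1 library left out. With DESeq2 on the 7 libraries, 501 genes were lower, and 92 list members and 63 of the 71 named genes were called. Cdk6 passed without KO replicate 2 (-1.28) and in libraries of 1 run (-1.06). Both fits drop the library singled out for its Cdk6 level. Its log2 fold change ranged from -1.28 to -0.63 with 1 library left out. At a mean of 20 CPM, 85 genes in place of 237 differed by more than 10 times among WT libraries. Direction reversed for Vldlr (0.32) and Hoxa9 (3.87), both in the second code. The cause of these changes was not tested.

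With the replicate number as a block, the 7 libraries gave 1 lower and 0 higher gene, 0 list members and 0 named genes called, and a Cdk6 log2 fold change of -0.74. Equal numbers share a code and letter, but the labels state no pairing, and whether the block is apt was not tested.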

Other observations

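Some neighbouring genes on chromosome 6 fell, in families chosen after their values were seen. Of all genes tested 3.56% were called lower, and 1.78% without KO replicate 2. Of 9 tested HoxA genes, homeobox factors of progenitors, 5 fell, 2 of them without KO replicate 2. None of the 9 was lower in every KO than in every WT library (7.7% of all genes were). The summed level of the HoxA genes was 98.6, 21.9 and 0.102 CPM in WT and 0.105 to 0.193 in KO, so WT replicate 3 lay at the KO level. Of 6 tested Gimap genes, GTPases of lymphocytes and progenitors, 4 fell (sum 124, 76.4 and 38.6 against 22.6 to 32.9 CPM), and 3 of those 4 were also called lower in untransformed cells. The membrane protein genes Tmem176a and Tmem176b both fell (sum 265, 124 and 48.5 against 1.34 to 10.8 CPM) and neither was called in untransformed cells. Abcg2, a drug efflux transporter gene elsewhere on chromosome 6, was at 55.9, 26.6 and 15.6 CPM in WT. In KO it was at 1.36, 0.0386, 0.0873 and 0.039 CPM (-6.60, adjusted p = 0.0051, edgeR's quasi-likelihood test).

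Genes called lower made up 6.87% of those tested on chromosome 6 (52 of 757) and 7.47% on the X chromosome (36 of 482), beside 3.56% over all chromosomes. Without KO replicate 2 the shares were 3.57% and 3.94%, beside 1.78%.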
